A study of Mus musculus with 11 samples.

Results

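Chemokines and their receptors were examined in type 1 conventional dendritic cells (cDC1s) sorted from B16 melanoma tumors grown in mice, by bulk RNA-seq. Every gene in the count table named Ccl, Cxcl, Ccr or Cxcr with a number, plus Xcl1, Cx3cl1 and Cx3cr1, was taken, which gave 56 of the 24421 genes, 39 chemokines and 17 receptors. The 3 genotypes were compared on a C57BL/6 background, all carrying floxed XBP1 alleles. Control pools came from mice without Cre, of which replicates 1 to 3 were XBP1 fl/fl and replicate 4 was XBP1 fl/fl IRE1 fl/fl. XBP1ΔDC mice were XBP1 fl/fl with CD11c-CRE, and XBP1ΔDCIRE1truncDC mice were XBP1 fl/fl, IRE1 fl/fl with CD11c-CRE. There were 4 control, 4 XBP1ΔDC and 3 XBP1ΔDCIRE1truncDC pools, each of cells from 2 to 4 mice of 6 to 14 weeks of age. The Cre transgene acts in all CD11c-expressing cells and not in cDC1s alone. Recombination removes exon 2 of Xbp1 and exons 20 and 21 of Ern1, the gene for IRE1, which leaves a truncated IRE1 without RNase activity. XBP1 is a transcription factor made from mRNA that the IRE1 RNase splices. XBP1ΔDC against control thus addresses the loss of XBP1 with what follows from it. XBP1ΔDCIRE1truncDC addresses that loss together with the loss of IRE1 RNase activity. The authors reported signs of IRE1 hyperactivation, by Xbp1 splicing, in tumor cDC1s of XBP1ΔDC mice.

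Chemokines are small secreted proteins that bind G protein-coupled receptors on leukocytes and direct their migration. In tumors, CXCL9, CXCL10 and CXCL11 attract CXCR3-bearing T cells, and CCL5 and XCL1 have been linked to the recruitment of cDC1s themselves, XCL1 through XCR1. Dendritic cells that mature gain CCR7, which guides them along CCL19 and CCL21 to the draining lymph node, and lose receptors for inflamed tissue.

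Each pool held 21089065 to 26843486 counts, and the 56 genes together took 0.32% to 0.737% of them. Of the 11 markers of cDC1s, all were above the expression filter. Their summed level was 13100 to 14400 normalized CPM (read counts scaled to the size of each library by the TMM method) in control pools. It was 11000 to 12400 CPM in XBP1ΔDC and 12000 to 12800 CPM in XBP1ΔDCIRE1truncDC pools. Every pool of both Cre lines thus lay below every control. Naaa was likewise lower, at 3926 to 4356, 2705 to 3052 and 3220 to 3415 CPM in that order. Xcr1 and Irf8 overlapped between the groups. Markers of neutrophils summed to at most 1.56 CPM and those of T cells to 1.95 to 12.5 CPM, highest in XBP1ΔDCIRE1truncDC replicate 1. The macrophage or monocyte list summed to 499 to 1210 CPM. The melanoma list summed to 8.96 to 60.9 CPM in control, 12.2 to 64.7 CPM in XBP1ΔDC and 8.74 to 11 CPM in XBP1ΔDCIRE1truncDC pools. Xbp1 was lower in XBP1ΔDC pools than in controls, by a log2 fold change of -0.74 with a standard error (SE) of 0.0973 (edgeR, adjusted p = 0.00167). The same value was -0.28 in XBP1ΔDCIRE1truncDC pools (SE 0.105, adjusted p = 0.324), and counts per gene cannot show the loss of single exons. In these bulk pools, fewer cells of a type and less RNA per cell cannot be told apart.

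Of the 56 genes, 26 were above 1 CPM in at least 4 pools, a share of 46.4% beside 44.8% of all genes. They were 17 chemokines and 9 receptors, and 20 of the 26 were above 1 CPM in all 11 pools. The chemokines were Ccl2, Ccl3, Ccl4, Ccl5, Ccl6, Ccl7, Ccl8, Ccl9, Ccl12, Ccl17, Ccl22, Cx3cl1, Cxcl2, Cxcl9, Cxcl10, Cxcl11 and Cxcl16. The receptors included Ccr1, Ccr2, Ccr6, Ccr7, Ccr9, Cxcr3, Cxcr4 and Cxcr5. Among the 30 genes below the filter, 13 had 0 counts in all pools, 17 had a count in some pool and 6 passed 1 CPM in 1 to 3 pools. The genes at 0 in all pools included Ccl20, Cxcl13, Cxcl14, Ccr3, Ccr4 and Cxcr1. A gene with 0 counts in a pool may be present below what that depth shows. Ccl21a, Ccl21b and Ccl21c, which are near-identical copies, were also at 0, so reads shared between them may have been left uncounted. Ccl19, the other CCR7 ligand, reached at most 6 counts in a pool.

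**Figure D1:**
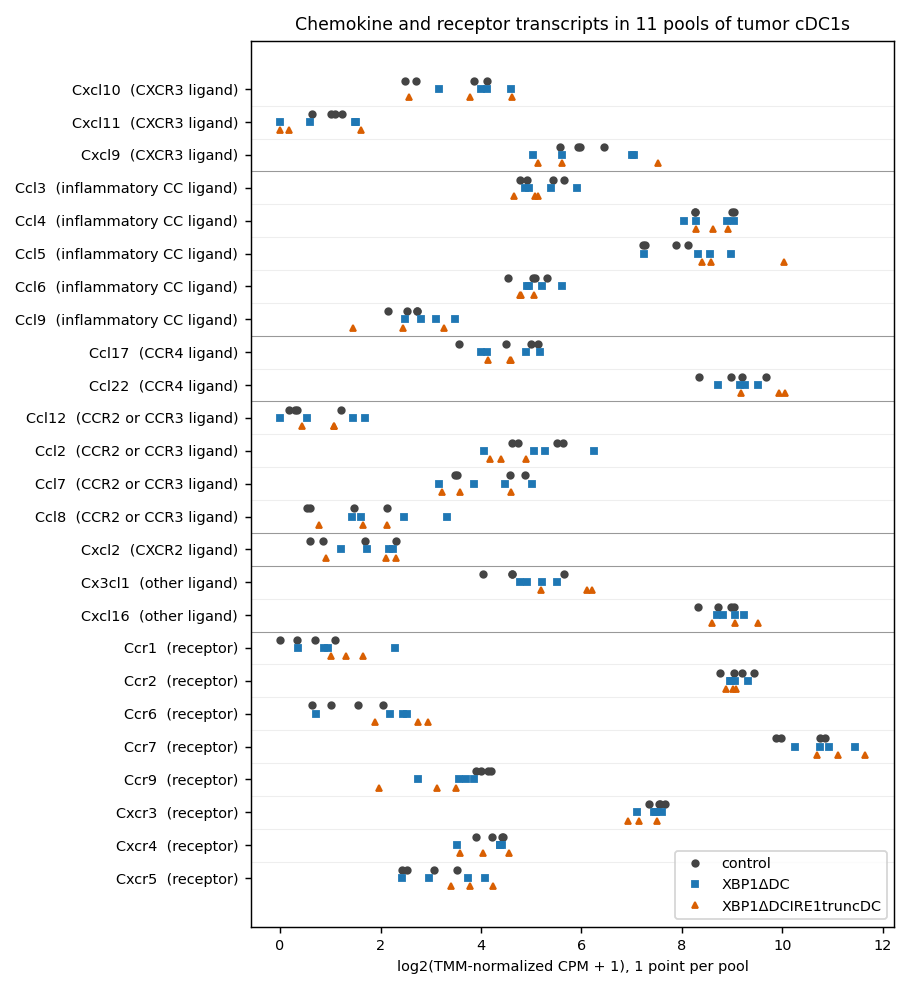
Levels of 25 chemokine and receptor genes above the filter, as log2(TMM-normalized CPM + 1), with 1 point per pool and the 3 genotypes as separate symbols. Genes are grouped by role, and Ccr7 lies highest, at 933 to 3209 CPM.

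Divided by exon length, so that genes can be set beside each other, the level of Ccr7 in controls was 694 ± 237 CPM per kb (SD, n = 4), which ranked 37 among all genes with a length. Ccl4, an inflammatory CC chemokine, followed with 621 ± 183 CPM per kb, and these levels of Ccr7 and Ccl4 lay within each other's spread. Ccl22 (239 ± 87.3 CPM per kb), a CCR4 ligand that draws regulatory T cells, and Ccl5 (212 ± 66.1 CPM per kb) came next. Cxcl16, whose product binds CXCR6 and also exists as a membrane-bound form, was at 146 ± 30.4, Cxcr3 at 107 ± 9.90 and Ccr2 at 82.4 ± 15.8 CPM per kb. Ccl3 followed at 48.0 ± 14.2 CPM per kb, beside Ccl17 at 47.2 ± 20.3. Their percentiles among all genes were 90.3 and 90.1. Of the CXCR3 ligands, the level of Cxcl9 was 21.1 ± 5.50, that of Cxcl10 4.44 ± 2.59 and that of Cxcl11 0.267 ± 0.0886 CPM per kb. The lowest level was that of Ccr1, at 0.176 ± 0.172 CPM per kb.

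None of the 26 genes passed the test in any of the 3 comparisons, in which edgeR calls needed a fold change above 1.5 beside an adjusted p under 0.05. In XBP1ΔDC against control 0 of 26 were called, beside 0.493% of all 10951 genes tested. The counts were likewise 0 of 26 in XBP1ΔDCIRE1truncDC against control, beside 0.21% of all genes, and 0 of 26 in XBP1ΔDCIRE1truncDC against XBP1ΔDC, beside 0.0731%. At an unadjusted p under 0.05, XBP1ΔDC against control gave 0 of the 26 genes, beside 7.62% of all genes. XBP1ΔDCIRE1truncDC against control gave 8 of the 26, or 30.8%, beside 11.2% of all genes. Of these, 6 had higher and 2 had lower values in XBP1ΔDCIRE1truncDC. XBP1ΔDCIRE1truncDC against XBP1ΔDC gave 1, beside 5.29%. The DESeq2 counts at an unadjusted p under 0.05 were 1, 8 and 0, and no gene of the 26 was called in any setting in which it had a value. The SE of the log2 fold changes was larger for these genes than for most, with a median of 0.361 over the 26 beside 0.152 over all genes in XBP1ΔDC against control, so a change of moderate size could be missed. Median log2 fold changes of the 26 were 0.18, 0.22 and -0.10 in the 3 comparisons in that order, beside 0.0050, -0.0031 and 0.0015 over all genes. The comparisons share groups of pools and are not independent.

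**Figure D2:**
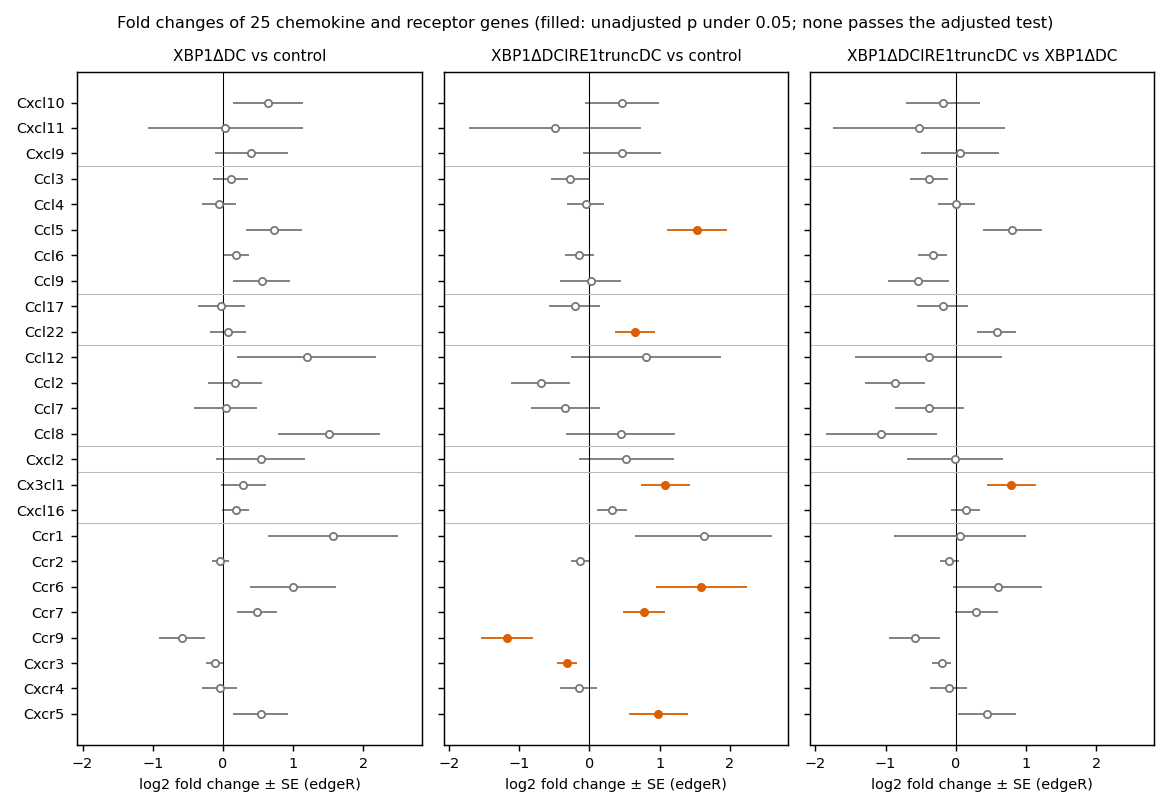
Log2 fold changes with standard errors from edgeR for 25 of the 26 genes in the 3 comparisons, with filled points for an unadjusted p under 0.05. The filled points are 8 in XBP1ΔDCIRE1truncDC against control and 1, Cx3cl1, in XBP1ΔDCIRE1truncDC against XBP1ΔDC, and no gene passed the adjusted test.

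The lymph node homing receptor gene Ccr7 lies on chr11:99144196-99155077 on the minus strand (GRCm38, GENCODE vM21). It was at 1709, 933, 1839 and 1007 CPM in controls (replicates 1 to 4). The XBP1ΔDC replicates 1 to 4 were at 2774, 1955, 1211 and 1727 CPM, and XBP1ΔDCIRE1truncDC replicates 1 to 3 at 2199, 1644 and 3209 CPM. The groups overlap, and the highest pool is XBP1ΔDCIRE1truncDC replicate 3. The log2 fold change against control was 0.48 in XBP1ΔDC (SE 0.282, adjusted p = 0.786) and 0.78 in XBP1ΔDCIRE1truncDC (SE 0.302, adjusted p = 0.346). Without that pool the second value was 0.49 and its unadjusted p was 0.15.

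Ccl5 (chr11:83525778-83530518, minus strand) encodes an inflammatory CC chemokine that attracts T cells and monocytes. It was at 236, 154, 278 and 148 CPM in controls (replicates 1 to 4) and at 505, 377, 151 and 320 CPM in XBP1ΔDC replicates 1 to 4. In XBP1ΔDCIRE1truncDC replicates 1 to 3 it was at 380, 336 and 1051 CPM. All 3 of these pools lie above all 4 controls, as do 3 of the 4 XBP1ΔDC pools. The control with floxed IRE1 alleles, replicate 4, had the lowest control value. The log2 fold change in XBP1ΔDCIRE1truncDC against control was 1.53 (SE 0.423, adjusted p = 0.185), and in XBP1ΔDC it was 0.73 (SE 0.395, adjusted p = 0.754). Leaving out XBP1ΔDCIRE1truncDC replicate 3 brought the first value to 0.81, with an unadjusted p of 0.0447. Against XBP1ΔDC, XBP1ΔDCIRE1truncDC pools differed by 0.80 on the log2 scale (adjusted p = 0.967), and by 0.08 without that pool.

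The other inflammatory CC chemokines did not share this pattern of values. Ccl4 was at 507, 306, 522 and 306 CPM in controls (replicates 1 to 4) and at 474, 261, 312 and 523 CPM in XBP1ΔDC replicates 1 to 4. In XBP1ΔDCIRE1truncDC replicates 1 to 3 it was at 392, 310 and 482 CPM. The log2 fold changes against control were -0.06 in both lines, and the groups overlap. Ccl3 was at 49.5, 26.4, 42.1 and 29.2 CPM in control, 41.1, 30.0, 28.4 and 59.1 CPM in XBP1ΔDC, and 24.4, 32.9 and 33.9 CPM in XBP1ΔDCIRE1truncDC replicates. Its log2 fold change was 0.11 (SE 0.249) in XBP1ΔDC and -0.28 (SE 0.271) in XBP1ΔDCIRE1truncDC. Ccl6 ranged from 22.3 to 48.0 CPM and Ccl9 from 1.72 to 10.1 CPM over the 11 pools, with groups that overlap in every comparison.

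The CCR4 ligand genes Ccl22 and Ccl17 lie on chromosome 8 at chr8:94745590-94751699 and chr8:94810453-94812036. Between them lies Cx3cl1 (chr8:94772009-94782427), which encodes fractalkine, a membrane-bound ligand of CX3CR1. The gap between Ccl22 and Cx3cl1 is 20.3 kb and that between Cx3cl1 and Ccl17 is 28.0 kb. Ccl22 was at 589, 321, 811 and 506 CPM in controls (replicates 1 to 4) and at 614, 572, 418 and 729 CPM in XBP1ΔDC replicates 1 to 4. In XBP1ΔDCIRE1truncDC replicates 1 to 3 it was at 980, 577 and 1062 CPM. The highest 2 pools belong to XBP1ΔDCIRE1truncDC, and the groups overlap. Its log2 fold change was 0.65 in XBP1ΔDCIRE1truncDC against control (SE 0.278, adjusted p = 0.397) and 0.07 in XBP1ΔDC against control (SE 0.259, adjusted p = 0.988).

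Cx3cl1 was at 23.7, 15.5, 49.1 and 23.4 CPM in control, at 29.0, 36.1, 26.4 and 44.8 CPM in XBP1ΔDC, and at 68.5, 35.5 and 73.1 CPM in XBP1ΔDCIRE1truncDC replicates. The same 2 XBP1ΔDCIRE1truncDC pools were highest, and replicate 2 lay inside the range of the controls. The log2 fold change against control was 1.08 in XBP1ΔDCIRE1truncDC (SE 0.344, adjusted p = 0.262) and 0.29 in XBP1ΔDC (SE 0.322, adjusted p = 0.946). It was the 1 gene of the 26 with an unadjusted p under 0.05 between the Cre lines, where the log2 fold change was 0.79 (SE 0.343, adjusted p = 0.931). Without XBP1ΔDCIRE1truncDC replicate 3 that difference was 0.61, with an unadjusted p of 0.139. Its receptor gene Cx3cr1 stayed below the filter, with at most 40 counts in a pool.

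Ccl17 showed none of this ordering. It was at 21.4, 10.8, 34.0 and 30.8 CPM in control, 16.5, 15.0, 35.0 and 28.6 CPM in XBP1ΔDC, and 23.3, 23.0 and 16.6 CPM in XBP1ΔDCIRE1truncDC replicates. The log2 fold changes against control were -0.03 (SE 0.336) and -0.21 (SE 0.365). The remaining ligand with a high level, Cxcl16 (chr11:70453983-70459984, minus strand), was at 500, 321, 525 and 421 CPM in controls (replicates 1 to 4) and at 601, 453, 417 and 532 CPM in XBP1ΔDC replicates 1 to 4. In XBP1ΔDCIRE1truncDC replicates 1 to 3 it was at 535, 386 and 733 CPM. The highest value again belongs to replicate 3 of that line, the groups overlap, and the log2 fold change in XBP1ΔDCIRE1truncDC against control was 0.32 (SE 0.208, adjusted p = 0.637). Cxcr6, the gene for its receptor, had at most 42 counts in a pool.

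**Figure D3:**
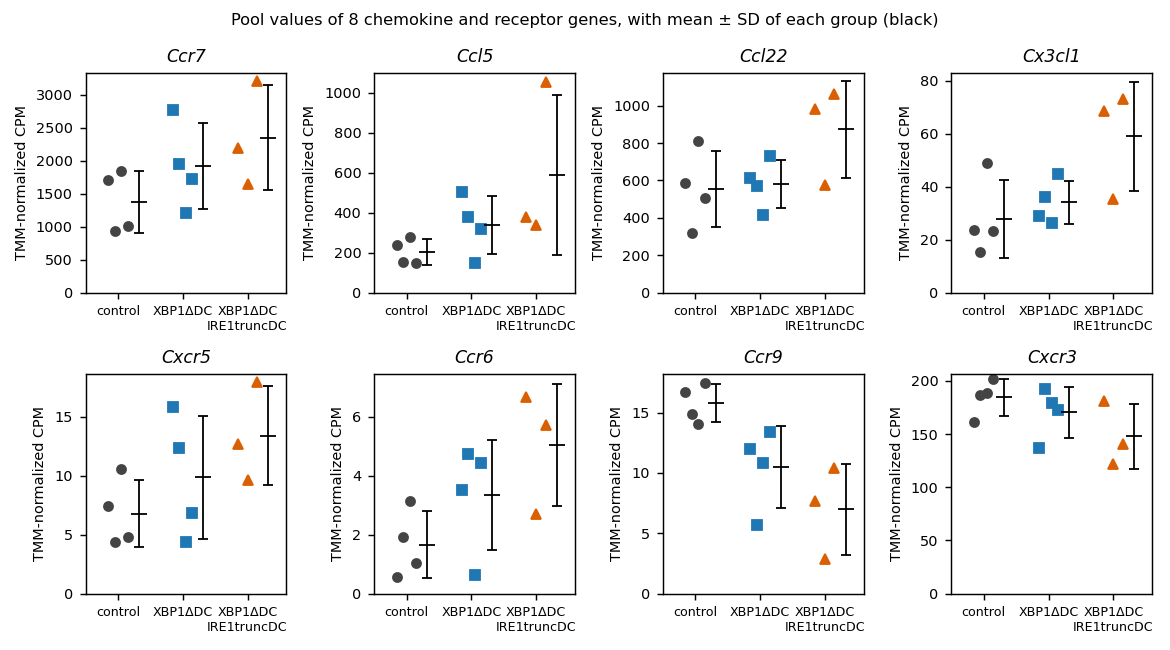
TMM-normalized CPM in each pool for the 8 genes with an unadjusted p under 0.05 in XBP1ΔDCIRE1truncDC against control, with the mean ± SD of each group in black beside its points. Values of Ccl5 in XBP1ΔDCIRE1truncDC lie at 336 to 1051 CPM and above all controls, and those of Ccr9 at 2.89 to 10.4 CPM and below all controls.

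Ccr9, the receptor of the gut and thymus chemokine CCL25, is known from gut-homing lymphocytes and plasmacytoid dendritic cells. It is annotated at chr9:123678439-123784330. It was at 16.7, 14.9, 14 and 17.5 CPM in control, 12.0, 5.72, 10.8 and 13.4 CPM in XBP1ΔDC, and 7.66, 2.89 and 10.4 CPM in XBP1ΔDCIRE1truncDC replicates. Every pool of both Cre lines lies below every control. The log2 fold change was -0.59 in XBP1ΔDC (SE 0.327, adjusted p = 0.771) and -1.17 in XBP1ΔDCIRE1truncDC (SE 0.365, adjusted p = 0.245). In XBP1ΔDC against control Ccr9 was the 1 gene of the 26 whose groups did not overlap, beside 5.31% of all genes. In XBP1ΔDCIRE1truncDC against control it was 1 of 2, with Ccl5, beside 10.1% of all genes, and in XBP1ΔDCIRE1truncDC against XBP1ΔDC 0 of the 26 did, beside 6.07%. The value in XBP1ΔDCIRE1truncDC ran from -1.57 to -0.81 as single pools were left out. Summed markers of plasmacytoid dendritic cells were at 94.4 to 110 CPM in control, 76.7 to 107 CPM in XBP1ΔDC and 87.6 to 96.3 CPM in XBP1ΔDCIRE1truncDC pools, with all 3 markers above the filter. Most of these sums came from Bst2 and Tcf4, each of which overlapped between the groups. Bst2 was at 67.1 to 78.8 CPM in control, 55.8 to 77.6 CPM in XBP1ΔDC and 63.5 to 73.1 CPM in XBP1ΔDCIRE1truncDC pools. Tcf4 was at 21.7 to 26.0, 18.6 to 26.1 and 19.6 to 26.1 CPM in the same order. In XBP1ΔDCIRE1truncDC replicate 2, which had the lowest Ccr9, Bst2 was at 73.1 and Tcf4 at 19.6 CPM. The remaining marker, Siglech, was at 5.0, 4.70, 3.03 and 5.54 CPM in control, 1.18, 3.52, 1.72 and 1.98 CPM in XBP1ΔDC, and 1.68, 0 and 2.09 CPM in XBP1ΔDCIRE1truncDC replicates. Like Ccr9, it was lower in every XBP1ΔDCIRE1truncDC pool than in every control, and it was at 0 in the pool with the lowest Ccr9, whereas 1 XBP1ΔDC pool overlapped with controls. The part of plasmacytoid dendritic cells in the Ccr9 values was not tested. Exons annotated to Ccr9 overlap those of neighbouring genes, among them Slc6a20a on the opposite strand and Gm17200 on the same strand.

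Cxcr3, Cxcr5 and Ccr6 also had an unadjusted p under 0.05 in XBP1ΔDCIRE1truncDC against control. Cxcr3 (chrX:101731535-101734269, minus strand), the receptor of CXCL9, CXCL10 and CXCL11, was at 161, 187, 188 and 202 CPM in control and 137, 192, 179 and 173 CPM in XBP1ΔDC replicates 1 to 4. In XBP1ΔDCIRE1truncDC replicates 1 to 3 it was at 181, 121 and 141 CPM. The groups overlap, with a log2 fold change of -0.32 in XBP1ΔDCIRE1truncDC against control (SE 0.142, adjusted p = 0.425). Cxcr5, the receptor of the follicle chemokine CXCL13, was at 7.42, 4.41, 10.5 and 4.78 CPM in control, 15.9, 12.3, 4.36 and 6.83 CPM in XBP1ΔDC, and 12.7, 9.60 and 17.9 CPM in XBP1ΔDCIRE1truncDC replicates. Its log2 fold change in XBP1ΔDCIRE1truncDC against control was 0.98 (SE 0.417, adjusted p = 0.394), and the groups overlap. Ccr6, the CCL20 receptor, was low throughout. It was at 0.551, 1.93, 3.15 and 1.03 CPM in control, 3.53, 4.76, 0.651 and 4.42 CPM in XBP1ΔDC, and 6.69, 2.7 and 5.74 CPM in XBP1ΔDCIRE1truncDC replicates. Its log2 fold change was 1.60 in XBP1ΔDCIRE1truncDC against control (SE 0.645, adjusted p = 0.371), and here too the groups overlap. These p-values depended on single pools. Without XBP1ΔDCIRE1truncDC replicate 3 the unadjusted p was 0.15 for Cxcr5 and, among the ligands above, 0.144 for Ccl22. It was 0.202 for Cxcr3 without replicate 2 and 0.0946 for Ccr6 without replicate 1 of the same line.

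Ccr2, Cxcr4 and Ccr1 had no unadjusted p under 0.05 in any comparison, which does not show that their levels were alike. Ccr2, the monocyte chemokine receptor, was at 587, 687, 433 and 522 CPM in control, 496, 637, 505 and 534 CPM in XBP1ΔDC, and 536, 471 and 520 CPM in XBP1ΔDCIRE1truncDC replicates. Its log2 fold changes against control were -0.04 (SE 0.126) and -0.13 (SE 0.136), among the most precise of the 26. Cxcr4, the CXCL12 receptor, was at 20.6, 20.5, 17.7 and 14 CPM in control, 20.3, 19.8, 10.6 and 19.8 CPM in XBP1ΔDC, and 15.5, 11 and 22.6 CPM in XBP1ΔDCIRE1truncDC replicates. The groups of Ccr2 and of Cxcr4 overlap in every comparison. Ccr1 did not exceed 3.87 CPM in any pool.

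The CXCR3 ligand genes Cxcl9 (chr5:92321347-92328079), Cxcl10 (chr5:92346638-92348889) and Cxcl11 lie next to each other on the minus strand of chromosome 5, with gaps of 18.6 and 10.7 kb. Exons of Cxcl10 overlap those of Art3 on the opposite strand, and Cxcl11, Cxcl16, Cxcr5 and Ccr9 likewise overlap exons of other annotated genes, 5 of the 26 in all, so their counts may miss or hold reads of those genes. The 250 bases before the start of Cxcl9 and Cxcl10 are shown because both genes varied with interferon-gamma response genes, as given further on. They are from RefSeq on GRCm38.p6, at chr5:92328080-92328329 and chr5:92348890-92349139, and read 5′ to 3′ on the minus strand. Capitals mark matches on either strand to the letters of 4 motifs, and these may overlap each other.
Cxcl9: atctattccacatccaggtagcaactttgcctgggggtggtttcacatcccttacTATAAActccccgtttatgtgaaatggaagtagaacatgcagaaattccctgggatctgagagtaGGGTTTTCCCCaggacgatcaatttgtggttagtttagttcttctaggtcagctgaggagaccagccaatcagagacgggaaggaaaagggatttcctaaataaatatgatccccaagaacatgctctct
Cxcl10: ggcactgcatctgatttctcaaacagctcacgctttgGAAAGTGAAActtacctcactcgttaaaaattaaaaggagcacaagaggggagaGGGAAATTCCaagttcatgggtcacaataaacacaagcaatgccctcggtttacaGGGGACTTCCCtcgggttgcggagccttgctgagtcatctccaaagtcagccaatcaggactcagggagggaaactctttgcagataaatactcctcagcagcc
The motifs searched were GAAANNGAAA, the core of the interferon-stimulated response element, TTCNNNGAA, a STAT core, GGGNNNNNCC, a loose NF-kB core, and TATAAA, the TATA box. Cxcl10 held GAAANNGAAA from base -213 to base -204, a match present in 2.98% of the 32851 promoter windows of this length, and 1 of 18 windows of the genes above the filter, its own, held it. GGGNNNNNCC was found in both windows and in 45.8% of all windows, TATAAA in the Cxcl9 window and in 12.4% of all, and TTCNNNGAA in neither but in 7.02% of all. Promoter windows were found for 17 of the 26 genes. A match is a description of letters and not a site.

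Cxcl9 was at 86.6, 59.9, 61.5 and 46.8 CPM in control, 131, 47.8, 127 and 31.6 CPM in XBP1ΔDC, and 33.9, 182 and 47.6 CPM in XBP1ΔDCIRE1truncDC replicates. High and low pools occurred within both Cre lines, and the range of each line held all control values. The log2 fold changes against control were 0.40 (SE 0.522, adjusted p = 0.954) and 0.46 (SE 0.56, adjusted p = 0.838). The second of these values rests on XBP1ΔDCIRE1truncDC replicate 2, without which it was -0.64. Cxcl10 was at 13.5, 4.63, 16.3 and 5.49 CPM in control, 23.1, 16.4, 14.9 and 7.96 CPM in XBP1ΔDC, and 4.93, 23.7 and 12.7 CPM in XBP1ΔDCIRE1truncDC replicates. Its log2 fold changes were 0.64 (SE 0.493) and 0.46 (SE 0.53), the latter -0.18 without XBP1ΔDCIRE1truncDC replicate 2, and the groups overlap. Cxcl11 did not exceed 2.05 CPM.

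Ccl2, whose product attracts monocytes through CCR2, sits in a cluster on chromosome 11 with Ccl7, Ccl12 and Ccl8. Ccl2 ranged from 23.6 to 48.6 CPM in control, 15.6 to 74.8 CPM in XBP1ΔDC and 17.0 to 28.7 CPM in XBP1ΔDCIRE1truncDC pools. Its log2 fold change was -0.70 in XBP1ΔDCIRE1truncDC against control (SE 0.426, adjusted p = 0.607). Ccl7 ranged from 8.0 to 31.3 CPM over all pools, Ccl8 from 0.444 to 9.0 CPM and Ccl12 from 0 to 2.22 CPM. Ccl8 had the largest log2 fold change of the ligands in XBP1ΔDC against control, 1.51 (SE 0.729, adjusted p = 0.688). This value was 0.86 without XBP1ΔDC replicate 3, the pool with the most Ccl8, and 2.25 without control replicate 3. Cxcl2, a CXCR2 ligand that attracts neutrophils, did not exceed 3.98 CPM. The summed macrophage or monocyte markers overlapped between the groups, at 702 to 1030 CPM in control, 668 to 957 CPM in XBP1ΔDC and 499 to 1210 CPM in XBP1ΔDCIRE1truncDC pools. Most of each sum came from Lyz2. The complement genes C1qa, C1qb and C1qc, which tissue macrophages express, were highest in XBP1ΔDC replicate 3, at 13.1, 22.4 and 17.1 CPM, and next in XBP1ΔDC replicate 4 at 6.75, 11.9 and 9.47 CPM, except that C1qa was at 7.09 CPM in control replicate 3. Ccl8 and Ccl12 were highest in the same 2 pools, and Ccl9 was highest in the first of them. The part of macrophages or monocytes in these values was not tested.

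Below the filter, and named after their values were seen, Ccl25 had fewer counts in all XBP1ΔDCIRE1truncDC pools than in any other pool, and Xcl1 had its highest counts in 2 of them. Ccl25, whose product is the ligand of CCR9, had 11, 12, 33 and 14 counts in control, 21, 37, 18 and 17 counts in XBP1ΔDC, and 3, 5 and 1 counts in XBP1ΔDCIRE1truncDC replicates. Without a filter its log2 fold change in XBP1ΔDCIRE1truncDC was -2.42 against control (SE 0.868, adjusted p = 0.365 from edgeR) and -2.88 against XBP1ΔDC (SE 0.881, adjusted p = 0.669). Exons of Ccl25 overlap those of Elavl1 on the opposite strand. Xcl1, the ligand of the cDC1 receptor XCR1 and a product of NK and T cells, had 9, 32 and 1 counts in XBP1ΔDCIRE1truncDC replicates 1 to 3 and at most 2 counts in any other pool (adjusted p = 0.366 against control without a filter). The summed T cell markers in those 3 pools were 12.5, 4.10 and 3.26 CPM, beside 2.10 to 4.28 CPM in control and 1.95 to 4.44 CPM in XBP1ΔDC pools, and their part in the Xcl1 counts was not tested. NK cell markers summed to 219, 253 and 240 CPM in those pools, 207 to 287 CPM in controls and 223 to 274 CPM in XBP1ΔDC pools, with 1 of the 6 markers, Klrk1, above the filter and giving nearly all of each sum. Of the others, Prf1 was at 2.5 CPM in XBP1ΔDCIRE1truncDC replicate 1 and at most 0.296 CPM in any other pool, while Ncr1 and Gzma were at 0.547 and 0.626 CPM there and reached 0.777 and 0.640 CPM in XBP1ΔDC replicate 2. All 3 were at 0 in XBP1ΔDCIRE1truncDC replicate 2, the pool with the most Xcl1 counts. The part of NK cells in the Xcl1 counts was not tested.

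**Figure D4:**
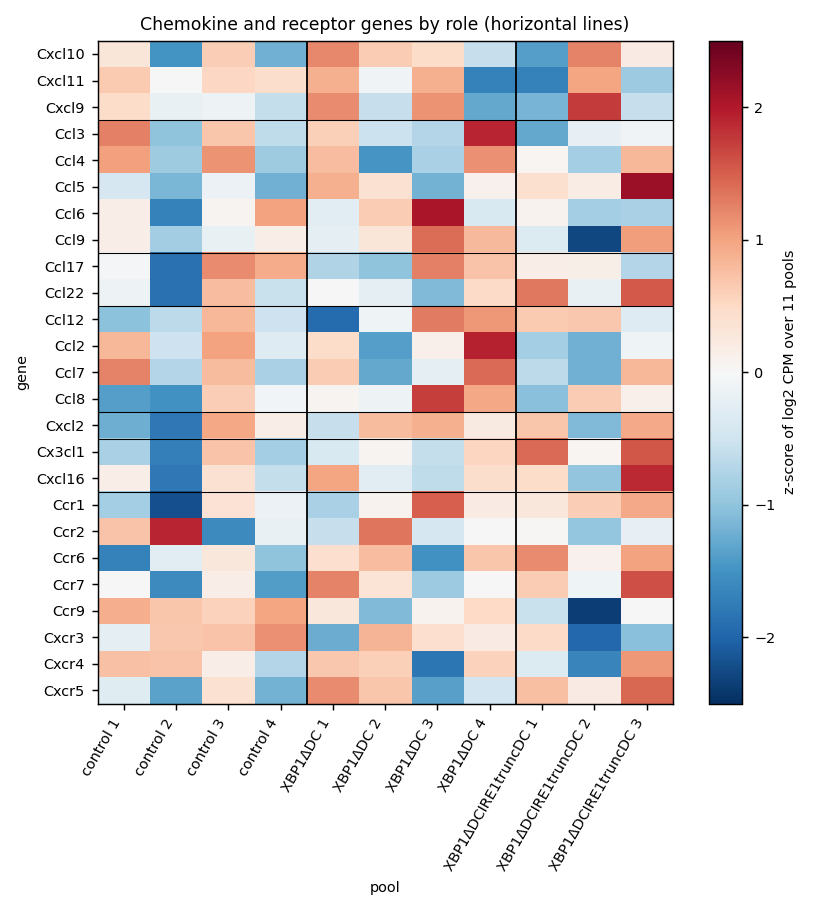
Log2 CPM of 25 of the 26 genes in each pool as z-scores over the 11 pools, with vertical lines between genotypes and horizontal lines between roles. Control replicate 2 is low for most ligands, and XBP1ΔDCIRE1truncDC replicate 3 is high for Ccl5, Ccl22, Cx3cl1, Cxcl16, Ccr7 and Cxcr5.

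Other genes of the chemokine system were taken from a list of 50 that holds none of the 56, of which 41 were above the filter. None was called in any comparison. At an unadjusted p under 0.05 there were 2 of 41 in XBP1ΔDC against control (1 higher, 1 lower), 6 in XBP1ΔDCIRE1truncDC against control (5 higher, 1 lower) and 0 in XBP1ΔDCIRE1truncDC against XBP1ΔDC. These are shares of 4.88%, 14.6% and 0%, beside 7.62%, 11.2% and 5.29% of all genes, and the median log2 fold changes were 0.02, 0.02 and 0.03. Xcr1, the XCL1 receptor that marks cDC1s, was at 846 ± 49.0 CPM in control (SD, n = 4), 850 ± 105 CPM in XBP1ΔDC (n = 4) and 870 ± 73.0 CPM in XBP1ΔDCIRE1truncDC pools (n = 3). Gnai2, a G protein subunit through which chemokine receptors signal, had log2 fold changes of 0.02 and -0.00 against control, with standard errors of 0.0565 and 0.061. Ccrl2, an atypical chemoattractant receptor that rises with activation, had a log2 fold change of 1.13 in XBP1ΔDCIRE1truncDC against control (SE 0.399, adjusted p = 0.307), and Rgs1, which dampens chemokine receptor signaling, 0.80 (SE 0.327, adjusted p = 0.376). Plcb2, a phospholipase downstream of these receptors, was the 1 lower gene of the 6 with an unadjusted p under 0.05 in that comparison. Its adjusted p from edgeR was 0.27.

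Levels of 5 chemokine or receptor genes were set against a list of 20 dendritic cell maturation genes, and 5 against 19 interferon-gamma response genes, over the 11 pools, and 9 of these 10 relations are given here. The lists hold no chemokine or receptor gene, and the scores are mean z-scores over the 19 and 18 genes above the filter. Pools share their library and scaling in both measures. P-values are from two-sided permutation tests adjusted over the 10 relations. The maturation score was highest in XBP1ΔDCIRE1truncDC replicate 3, at 1.70, and lowest in control replicate 2, at -1.53. None of the 19 maturation genes tested was called in any comparison, and 18 of them had a higher value in each. In XBP1ΔDCIRE1truncDC against control 14 had an unadjusted p under 0.05 with higher values, beside 11.2% of all genes in either direction. In XBP1ΔDC against control 3 did, beside 7.62%, and between the Cre lines 1 did, beside 5.29%. The median log2 fold changes were 0.66, 0.42 and 0.26 in that order. The scores overlap, with control replicate 3 at 0.15 and XBP1ΔDCIRE1truncDC replicate 2 at 0.11. The interferon-gamma list had 0 called of 18 in every comparison. Its median was 0.68 in XBP1ΔDCIRE1truncDC against control, with an unadjusted p under 0.05 for 7 genes with higher and 1 with lower values. In XBP1ΔDC against control the median was 0.33, with 16 of 18 values higher and 1 gene higher at that p. Between the Cre lines the median was 0.29, and 0 genes had such a p.

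Ccr7 followed the maturation score most closely, with r = 0.97 (adjusted permutation p = 1e-04) and rho = 0.93 (adjusted permutation p = 9e-04), and its unadjusted permutation p of 1e-05 is the smallest that the resamples can give. On deviations from the group means r was 0.96 (adjusted permutation p = 0.00289), and without the 2 pools farthest from the median score it was 0.96. Ccl5 gave r = 0.95 (adjusted permutation p = 1.5e-04) and rho = 0.91 (adjusted permutation p = 0.0013), r = 0.92 within groups and 0.93 without those 2 pools. Cxcl16 gave r = 0.89 (adjusted permutation p = 0.00133) and rho = 0.80 (adjusted permutation p = 0.0112). Within groups this was 0.91, but without the 2 farthest pools r was 0.69 and its adjusted permutation p was 0.0862, so it depends on them. Ccl22 gave r = 0.79 (adjusted permutation p = 0.00747) and rho = 0.85 (adjusted permutation p = 0.00627). Its r was 0.75 within groups but 0.48 without the 2 farthest pools, with an adjusted permutation p of 0.2, so the relation of Ccl22 rests on those pools. Ccl17 gave r = -0.08 (adjusted permutation p = 0.812) and rho = -0.12 (adjusted permutation p = 0.734), and r = -0.05 within groups.

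The interferon-gamma score was highest in XBP1ΔDCIRE1truncDC replicate 2, at 1.39, the pool with the highest Cxcl9. Cxcl9 gave r = 0.83 (adjusted permutation p = 0.00382) and rho = 0.77 (adjusted permutation p = 0.0119), with r = 0.90 within groups and 0.86 without the 2 farthest pools. Cxcl10 gave r = 0.79 (adjusted permutation p = 0.00747) and rho = 0.79 (adjusted permutation p = 0.0112), r = 0.85 within groups and 0.66 without the 2 farthest pools, where the adjusted permutation p was 0.0933 and the relation was no longer called. Cxcl11 gave r = 0.58 (adjusted permutation p = 0.0846) and rho = 0.71 (adjusted permutation p = 0.0262), r = 0.92 within groups and 0.62 without the 2 farthest pools. Ccl5 gave r = 0.28 (adjusted permutation p = 0.449) and rho = 0.32 (adjusted permutation p = 0.429) with this score, and -0.03 within groups.

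**Figure D5:**
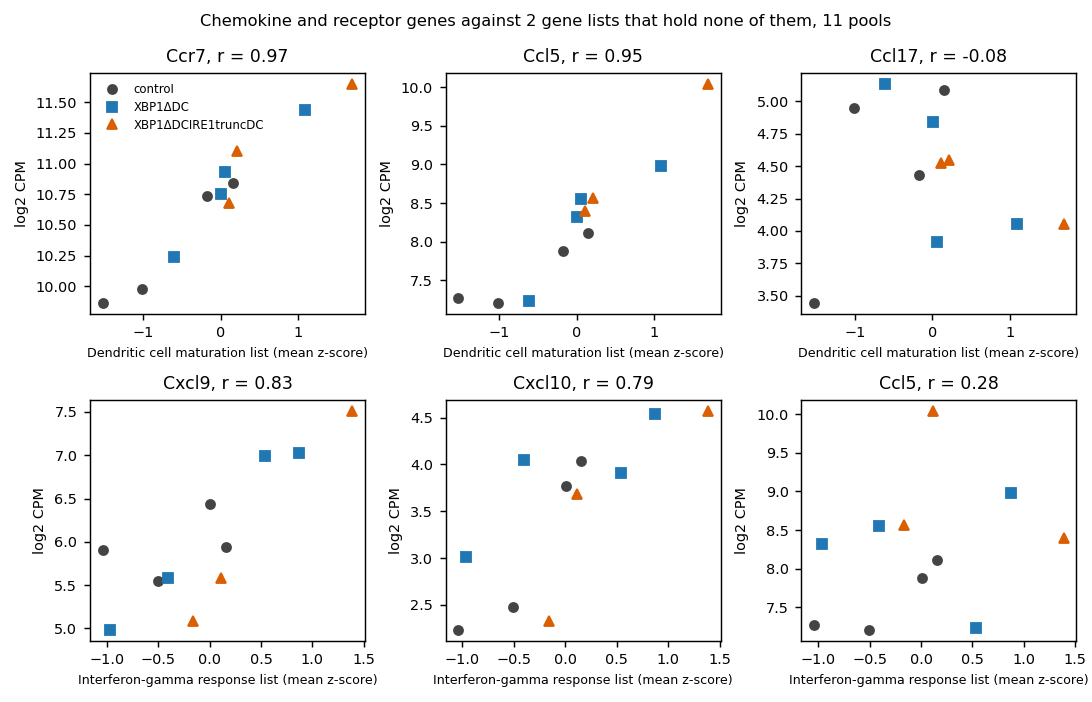
Log2 CPM of chemokine and receptor genes against the maturation score (upper row) and the interferon-gamma score (lower row), each a mean z-score, with 1 point per pool. Ccr7 (r = 0.97) and Ccl5 (r = 0.95) rise with the maturation score and Ccl17 (r = -0.08) does not, while Cxcl9 (r = 0.83) and Cxcl10 (r = 0.79) rise with the interferon-gamma score.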

How the data were processed

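The bulk RNA-seq libraries were made by the SMART-seq method from 11 pools of sorted tumor cDC1s and sequenced single-end. Reads were trimmed by the authors with Trimmomatic 0.39, then aligned with STAR 2.7.3a and counted per gene with HTSeqCount, and the deposited counts are not normalized. The build is given as mm10, and whether counting used strand is not given in the sources used here. A second table by the authors holds log2 values normalized with limma 3.42.2. Pools were grouped by genotype from the labels.

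The 10951 genes that exceeded 1 CPM in 4 or more pools were fitted in R 4.3.3 with edgeR 4.0.16 as 1 quasi-likelihood model of 3 groups after TMM scaling, with p-values adjusted by the Benjamini-Hochberg method over all genes and a call where the fold change exceeded 1.5 at an adjusted p under 0.05. Standard errors (SE) were derived from the log2 fold change and its F statistic. Per-pool values are TMM-normalized CPM, and log2 CPM for the relations used a prior count of 2. Levels per length used the exons of GENCODE vM21, with a length for 96.2% of genes tested. The script was tested on simulated counts of XBP1ΔDC against control over 10827 genes. There edgeR recovered 37.3%, 65.7% and 84.8% of changes of 1.5, 2 and 3 fold at an adjusted p under 0.05, without the fold change limit. The changed genes were drawn from all genes, whose median SE of 0.152 was below the 0.361 of the 26. These shares therefore do not give the power for the 26 genes or for the full call. Alternatives used DESeq2 1.42.0 and limma 3.58.1, other scalings and filters, a replicate block and leaving out each pool. Permutation tests used python 3.11.15 with numpy 2.4.6 and up to 100000 resamples, and relations within groups used all 3456 orders.

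Values in every pool are given for genes among the 8 highest per length, with an unadjusted p under 0.05 or groups that do not overlap in any comparison, or on a short list of dendritic cell chemokines and receptors. The gene group, the lists and the tests were chosen with earlier results of these data known. Replicate numbers were not used to pair pools, and replicate pools were further apart than counting noise (chi-square per degree of freedom 21.2 to 67.2). Each pool holds cells of 2 to 4 mice, and p-values measure the spread between pools. Of the 26 genes above the filter, 1 is counted in these numbers but is not reported by name here.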

Additional observations from a re-analysis of the deposited data

Results flagged for a closer look

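In groups of 4 pools, the 26 genes gave 52 checks for a pool standing apart from the rest of its group by Dixon's ratio, of which about 2.6 would be flagged by chance, and 2 were. Ccl12 was at 1.33 CPM in control replicate 3, beside 0.127 to 0.268 CPM in the other control pools. Cxcr4 was at 10.6 CPM in XBP1ΔDC replicate 3, beside 19.8 to 20.3 CPM in the other XBP1ΔDC pools.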

How the results depend on the processing

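No gene of the 26 was called in the 3 comparisons without a fold change limit or under any of the 21 alternatives that gave it a value. Ccr1 had a value in 17 of them, and 3 genes had no adjusted p from DESeq2 in XBP1ΔDC against control. The counts of 26 genes detected and of 8 highest per length stayed within 1.5 times under every alternative run for them. At an unadjusted p under 0.05, XBP1ΔDC against control gave 0 genes, but 1 with DESeq2, 2 with limma-voom, 1 with the other edgeR setting, 2 without a filter, 2 with only the pools of both groups, 2 with the replicate block, 1 with the deposited log2 values and 0 to 5 with single pools left out. XBP1ΔDCIRE1truncDC against control gave 8, and 3 to 9 with single pools left out, with 3 without control replicate 4 or XBP1ΔDCIRE1truncDC replicate 3. XBP1ΔDCIRE1truncDC against XBP1ΔDC gave 1, but 0 with DESeq2 or the replicate block, 2 with only the pools of both groups, 6 without a filter and 0 to 4 with single pools left out. The counts without a filter cover all of the 56 genes with a count in some pool, and not the 26 alone. They include Cxcl12 in XBP1ΔDC against control, and Ccl25, Xcl1 and Ccr8 in XBP1ΔDCIRE1truncDC against XBP1ΔDC, all below the filter. Over all genes the calls were 54, 23 and 8, and they changed to 98 and 39 in the first 2 comparisons without a fold limit, to 94 and 36 in the last 2 with DESeq2, to 11 and 3 with the replicate block, to 15 in XBP1ΔDCIRE1truncDC against control with only its pools, and to 37 to 57, 12 to 23 and 4 to 10 with single pools left out. The cause of these changes was not tested. Same-numbered pools correlated by 0.098, 0.0035 and -0.22 on average in the 3 comparisons, beside -0.033, -0.0012 and 0.074 for other pairs of pools. In XBP1ΔDC against control all 4 same-numbered pairs were positive, at 0.042 to 0.133. As 3 of 8, 1 of 7 and 0 of 7 pools correlated best with their own number, numbers were not used to pair pools. Whether same-numbered pools shared a batch is not given in the labels. The 9 fold changes with an unadjusted p under 0.05 kept their sign in all 21 alternatives, and 31 of the other 69 changed sign in at least 1.

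Of the 10 relations across pools, those of Ccl22, Cxcl16 and Cxcl10 fell to r = 0.48, 0.69 and 0.66 without the 2 farthest pools and lost their call. Cxcl11 gained one within groups (r = 0.92), and its r ran from 0.46 to 0.66 with single pools left out. Ccl17 with maturation ran from -0.67 to 0.10 as single pools were left out, changing sign, and Ccl5 with the interferon-gamma score changed sign to -0.026 within groups. The depth of 21089065 to 26843486 counts per pool was alike in all groups, and genes near 1 CPM are the least precise, as with Cxcl11, whose standard error was 1.10 in XBP1ΔDC against control.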

Other observations

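Among the 26 genes, 325 pairs were correlated over the 11 pools, a comparison chosen after seeing the data, and 11 pairs had an adjusted permutation p under 0.05, all with r above 0. None of the 11 passed the adjustment when deviations from the group means were used. There the smallest p that the 3456 orders can give is 0.000289. With 325 pairs, a single pair at that p could not pass, so no absence of relations within groups follows. Ccr7 and Cxcr5 were at that p, with an adjusted permutation p of 0.0627. The levels of Ccr7 and Cxcr5, the receptors for lymph node and follicle chemokines, had r = 0.95 (adjusted permutation p = 0.00162) and rho = 0.94 (adjusted permutation p = 0.013), with 0.94 within groups and 0.93 without the 2 farthest pools. Ccl5 gave r = 0.94 with Ccr7 and 0.93 with Cxcr5 (adjusted permutation p of 0.00217 and 0.00244, rho of 0.91 and 0.93), and Ccr7 gave 0.89 with Cxcl16 (adjusted permutation p = 0.0195, rho of 0.90).

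Some of the 11 pairs lie close together in the genome and others do not, and a relation to distance was not tested. Close pairs on chromosome 11 that did not pass included Ccl6 and Ccl9 (gap 9.2 kb, r = 0.55, adjusted permutation p = 0.426). Others were Ccl8 and Ccl12 (11.8 kb, r = 0.58, adjusted permutation p = 0.348) and Ccl3 and Ccl4 (13.2 kb, r = 0.76, adjusted permutation p = 0.126). The neighbours Ccl22 and Cx3cl1 on chromosome 8 had r = 0.94 (adjusted permutation p = 0.00162, rho of 0.87, adjusted 0.0292), 0.94 within groups and 0.88 without the 2 farthest pools. Ccl17, the next gene at 28.0 kb, had r = 0.23 with Cx3cl1 and 0.21 with Ccl22 (adjusted permutation p of 0.82 and 0.832). Ccl2 and Ccl7, whose gap on chromosome 11 is 8.3 kb, had r = 0.91 (adjusted permutation p = 0.0039, rho of 0.89), while Ccl4 and Ccl7, which are not neighbours, had r = 0.94 (adjusted permutation p = 0.0195, rho of 0.94). Cxcl9 and Cxcl11 had r = 0.85 (adjusted permutation p = 0.0473, rho of 0.93), beside 0.70 for Cxcl9 and Cxcl10 (adjusted permutation p = 0.186).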
